A study of Mus musculus with 8 samples.

Results

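The genes described here are 10 regulators of the posterior body axis and of early mesoderm, of 26212 annotated genes: the caudal homeobox genes Cdx1, Cdx2 and Cdx4, the T-box genes T and Tbx6, the homeobox genes Evx1, Evx2 and Nkx1-2, the bHLH gene Msgn1 and the ligand gene Gdf11. They were taken by name for their known roles in the tail bud and in Hox activation, and all 10 were found in the annotation. For each gene the H3K4me3 ChIP-Seq tags within 1 kb of its transcription start (TSS) were counted in mouse embryonic stem cells (mESCs) of the wild-type (wt) line TC-1 and of the Men1-ko (menin-null) line 3.2N. They were also counted in the pancreatic islet-like endocrine cells (PILECs) into which each line was differentiated in vitro. Both lines have the 129S6/SvEvTac background and were grown on irradiated feeder fibroblasts with LIF before they were freed of feeders on gelatin. 1 library of H3K4me3 and 1 of input were made per line and stage, so there were no replicates. Each genotype was 1 line, so that genotype and line cannot be told apart. The cell composition of the PILEC cultures was not measured here, so fewer cells with a mark and less mark per cell cannot be told apart.

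H3K4me3, trimethylation of lysine 4 of histone H3, marks the starts of genes that are active or poised, above all those rich in CpG, and menin is a subunit of MLL complexes that place it. In the embryo, Wnt and Fgf signals in the primitive streak and tail bud switch on T and the Cdx genes. Cdx proteins bind Hox clusters and help to open them. Tbx6 and Msgn1 then drive cells into presomitic mesoderm, Evx1 and Evx2 sit at the 5′ ends of the Hoxa and Hoxd clusters, and Gdf11 signals the step from trunk to tail. In embryonic stem cells many such developmental genes carry H3K4me3 together with Polycomb marks at a low level of transcription.

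The H3K4me3 libraries held 2432377 to 3517028 tags in mESCs and 17682677 to 18773635 in PILECs, so values in mESCs rest on fewer tags. Counts were scaled to 1000000 tags of the library (RPM), and a ratio of 2 libraries is given as log2 with its 95% exact conditional binomial (Clopper-Pearson) interval, which covers counting error only. A gene was called where its ratio was at least 2-fold and the interval left out 0. Over exons 3 to 8 of Men1, the targeted gene (chromosome 19, 6336725 to 6338961, mm9), the wt inputs gave 17 tags (mESCs) and 22 tags (PILECs), and both menin-null inputs gave 0, which allows up to 3. The 10 markers of pluripotent cells summed to 402 and 504 RPM in wt and menin-null mESCs and to 47.3 and 46.1 RPM in the PILECs. Of 12 islet markers 6 were at least 2-fold over input in each PILEC library, near the share of all genes given below, but 7 were so in wt mESCs and 6 in menin-null mESCs as well. The 5 hormone genes among them, Ins1, Ins2, Gcg, Sst and Iapp, had from 4 (Ins1) to 24 tags (Sst) in wt PILECs and from 6 (Iapp) to 22 tags (Ins2) in menin-null PILECs.

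The sequences before the starts of 4 genes are shown first because these starts differ widely in CpG and in H3K4me3. Cdx2 and T had fewer RPM in PILECs than in mESCs, Tbx6 has few CpG, and Gdf11 has the most of the 10 within 1 kb of the start. Each run is 250 bases ending just before the 5′-most annotated start, read 5′ to 3′ on the strand of the gene from the mm9 genome (NCBIM37), with each CG in capitals.
Cdx2, chr5:148118847-148119096, minus strand, 11 CG: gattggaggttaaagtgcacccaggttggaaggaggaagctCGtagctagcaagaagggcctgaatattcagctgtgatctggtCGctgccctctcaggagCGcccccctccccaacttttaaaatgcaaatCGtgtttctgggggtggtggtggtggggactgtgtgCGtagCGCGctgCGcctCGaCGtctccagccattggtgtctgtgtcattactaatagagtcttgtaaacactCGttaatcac
T, chr17:8627038-8627287, plus strand, 14 CG: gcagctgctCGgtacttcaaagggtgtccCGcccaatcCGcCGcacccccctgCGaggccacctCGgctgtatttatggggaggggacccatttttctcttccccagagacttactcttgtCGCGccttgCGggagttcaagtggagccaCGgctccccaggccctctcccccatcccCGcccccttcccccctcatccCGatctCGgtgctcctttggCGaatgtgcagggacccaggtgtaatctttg
Tbx6, chr7:133924747-133924996, plus strand, 6 CG: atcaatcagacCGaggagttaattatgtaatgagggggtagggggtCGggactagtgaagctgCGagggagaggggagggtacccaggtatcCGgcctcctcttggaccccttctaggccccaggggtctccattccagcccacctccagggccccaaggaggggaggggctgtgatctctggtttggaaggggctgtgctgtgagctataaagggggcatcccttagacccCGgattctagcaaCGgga
Gdf11, chr10:128328775-128329024, minus strand, 33 CG: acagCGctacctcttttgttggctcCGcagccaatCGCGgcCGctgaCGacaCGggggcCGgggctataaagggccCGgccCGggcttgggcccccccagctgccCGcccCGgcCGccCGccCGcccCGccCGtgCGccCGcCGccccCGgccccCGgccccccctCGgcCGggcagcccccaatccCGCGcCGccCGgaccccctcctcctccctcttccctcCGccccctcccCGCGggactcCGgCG
Within 1 kb of the start, Gdf11 had 136 CG, Cdx1 129 and Cdx2 118, with T between these 2, against a median of 59 over all genes. Evx2 had 90, Evx1 82 and Nkx1-2 74, and Cdx4 with 53, Tbx6 with 47 and Msgn1 with 39 lay below that median. The core motif of TCF/LEF factors, which carry the Wnt signal (CTTTGA, either strand), stood in the 300 bases from 250 before to 50 after the start in 3 of 10 genes, Cdx1, T and Msgn1. It stood in 14.2% of all 26212 such stretches, and a match of letters is a description and no binding site. For Evx2 the start used here is not the 5′-most annotated one, and the motif also stood in the 250 bases before that 5′-most start.

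In mESCs, Gdf11, Cdx2, T and Cdx1 had the highest RPM of H3K4me3 of the 10 genes, and Msgn1 and the start of Evx2 did not stand above the input beyond counting error. Gdf11, a secreted ligand of the TGF-beta family (chromosome 10, 128319351 to 128328774), had 75 tags in wt mESCs and 122 in menin-null mESCs, that is 30.9 and 34.7 RPM. Cdx2, which helps to activate Hox genes in the posterior embryo (chromosome 5, 148112381 to 148118846), had 11.9 and 12.2 RPM. T, the Brachyury factor of the primitive streak and notochord (chromosome 17, 8627288 to 8635361), had 11.5 and 13.9 RPM. In both mESC libraries Gdf11 lay above the next gene in order by an interval that left out 0, with a log2 difference of 1.37 (0.73 to 2.04) to Cdx2 in wt and of 1.32 (0.83 to 1.83) to T in menin-null mESCs. Cdx2 and T did not differ beyond their counting error in either, with 0.05 (-0.75 to 0.85) for Cdx2 over T in wt mESCs and 0.19 (-0.43 to 0.81) for T over Cdx2 in menin-null mESCs. Cdx1, a second caudal factor (chromosome 18), had 7.00 and 10.2 RPM.

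Cdx1 over Nkx1-2, the next gene in order, was 0.09 (-0.99 to 1.17) in wt and 0.92 (0.08 to 1.81) in menin-null mESCs, so the step between them exceeded counting error only in menin-null mESCs. Nkx1-2, a homeobox gene of the tail-bud progenitors (chromosome 7, 139786560 to 139791320), had 6.59 RPM in wt and 5.41 in menin-null mESCs, and Evx1 (chromosome 6, 52263492 to 52268372) had 5.35 and 4.27. Cdx4, on chromosome X from 100516737 to 100525931, had 9 and 12 tags, or 3.71 and 3.42 RPM. Tbx6, which turns progenitors into presomitic mesoderm (chromosome 7, 133924997 to 133929074), had 8 and 10 tags, or 3.29 and 2.85 RPM, beside inputs of 2.36 and 2.41 RPM. Msgn1, a partner of Tbx6 in presomitic mesoderm (chromosome 12, 11215188 to 11215754), had 3 and 2 tags beside 9 and 2 in the inputs. Evx2 (chromosome 2, 74491049 to 74497918) had 0 and 3 beside 12 and 6 in the inputs. For Evx2 in wt mESCs the interval of the log2 ratio over input ended at -0.67. Neither start stood above its input in mESCs beyond counting error, and both were under the filter of 10 tags.

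H3K4me3 at the start was at least 2-fold over the input, with an interval above 0, for 5 of 10 genes in wt mESCs (Cdx1, Cdx2, T, Nkx1-2 and Gdf11) and for 7 in menin-null mESCs, where Cdx4 and Evx1 were added. It was so for 7 genes in wt PILECs (Cdx2, T, Tbx6, Evx1, Evx2, Nkx1-2 and Gdf11) and for 6 in menin-null PILECs, the same ones without Evx1. Of all genes with enough tags, 91.7%, 87.6%, 59.5% and 58.8% passed this rule in wt mESCs, menin-null mESCs, wt PILECs and menin-null PILECs. Of the 10 genes 8, 8, 10 and 9 had enough tags, so that 5 of 8 in wt mESCs lay below the background and the other 3 libraries were near it. Cdx4 and Evx1, which passed in menin-null and not in wt mESCs, had 9 and 13 H3K4me3 tags in wt and 12 and 15 in menin-null mESCs, beside 7 and 10 input tags in wt and 1 and 3 in menin-null mESCs.

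**Figure D1:**
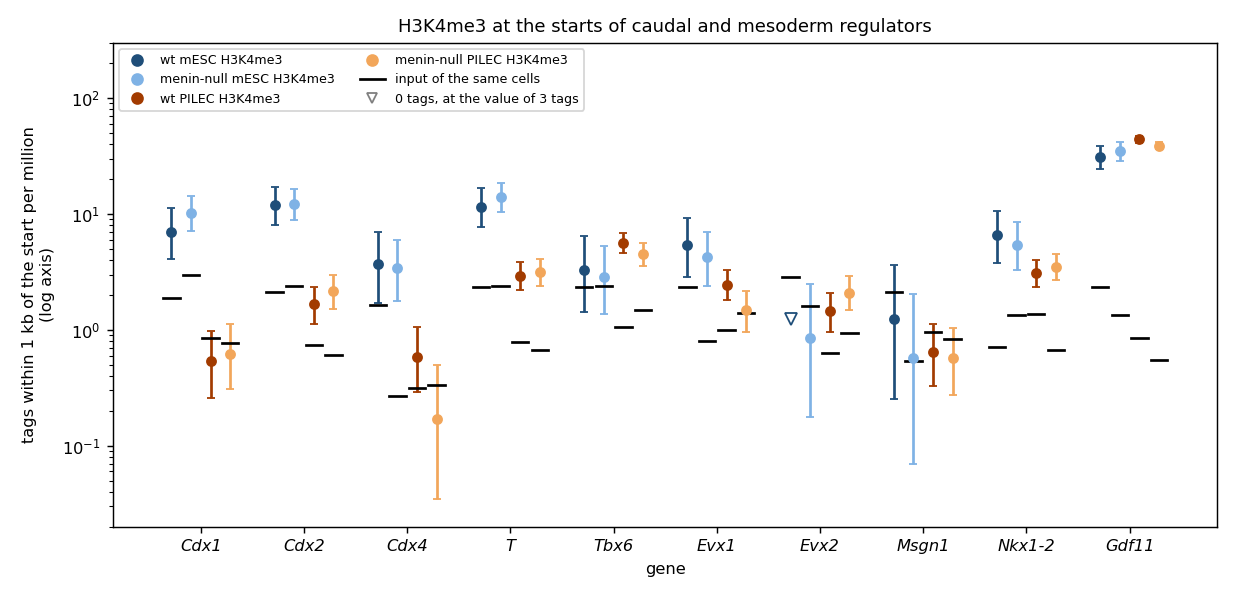
H3K4me3 within 1 kb of the start in RPM (vertical, log axis) for each of the 10 genes (horizontal), with 1 point a library, bars for the 95% Poisson interval of the count, black dashes for the input of the same cells and an open triangle at the value of 3 tags where the count was 0. The mESC points of Cdx1, Cdx2, Cdx4 and T lie above both PILEC points, Gdf11 lies above all other genes in every library, and within a stage the intervals of the 2 genotypes overlap for all 10 genes.

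In PILECs the order of the genes was another one. Gdf11 stayed on top with 43.9 RPM in wt and 38.9 in menin-null PILECs, and Tbx6 came second with 5.60 and 4.47 RPM (105 and 79 tags). Nkx1-2 had 3.10 and 3.51 RPM, T 2.94 and 3.17, Evx1 2.45 and 1.47, and Cdx2 1.65 and 2.15. Evx2 had 1.44 and 2.10 RPM, and the lowest were Msgn1 with 0.640 and 0.566, Cdx1 with 0.534 and 0.623, and Cdx4 with 0.587 and 0.170. Gdf11 exceeded Tbx6 by a log2 difference of 2.97 (2.68 to 3.28) in wt and 3.12 (2.78 to 3.48) in menin-null PILECs, and Tbx6 exceeded Nkx1-2 by 0.86 (0.38 to 1.34) in wt but by 0.35 (-0.15 to 0.85) in menin-null PILECs. From Nkx1-2 to Evx2 in wt PILECs no gene differed from the next one down beyond its counting error. Cdx1, Cdx4 and Msgn1 were not distinguishable from their inputs in either PILEC library, with 10 and 11 tags for Cdx1 beside 16 and 14 in the inputs.

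The comparison of PILECs with mESCs asks how the mark of these genes moved on differentiation, within each genotype. In RPM the 3 Cdx genes, T and Evx1 fell at least 2-fold in both genotypes, and Nkx1-2 passed this rule in wt. Cdx1 went from 17 tags in wt mESCs to 10 in the deeper wt PILEC library, a log2 ratio of -3.71 (-5.00 to -2.50), or 13.1-fold, and in menin-null cells it went from 36 tags to 11, with -4.04 (-5.16 to -3.03). For Cdx2 the log2 ratio was -2.85 (-3.63 to -2.07) in wt and -2.51 (-3.18 to -1.84) in menin-null cells. For T it was -1.97 (-2.66 to -1.26) and -2.14 (-2.72 to -1.55). Cdx4, with 9 and 12 tags in mESCs, gave -2.66 (-4.07 to -1.21) and -4.33 (-6.79 to -2.44), the second to 3 tags. Relative to the input in the same 1-kb windows the differences of Cdx1, Cdx2 and T between the stages were smaller. Cdx1 went from a log2 ratio of 1.89 (0.60 to 3.31) over input in wt mESCs to -0.66 (-1.96 to 0.57) in wt PILECs. Cdx2 went from 2.49 (1.37 to 3.75) to 1.16 (0.21 to 2.19) in wt and from 2.34 (1.29 to 3.57) to 1.82 (0.82 to 2.94) in menin-null cells, with intervals that overlap. T was at 2.29 (1.204 to 3.49) and 1.89 (1.05 to 2.82) in wt and at 2.53 (1.49 to 3.74) and 2.25 (1.34 to 3.29) in menin-null cells, so its fall was not seen relative to this input. Cdx4 in wt was not distinguishable from the input at either stage. In menin-null cells Cdx4 went from 3.67 (0.92 to 9.09), with 1 input tag, to -0.97 (-3.60 to 1.26), with intervals that overlap.

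Evx1 gave -1.12 (-2.04 to -0.11) in wt and -1.54 (-2.51 to -0.51) in menin-null cells, and within 0.5 kb of its start -0.58 (-1.77 to 0.83) in wt and -1.59 (-2.88 to -0.22) in menin-null cells. Nkx1-2 gave -1.09 (-1.91 to -0.19) in wt and -0.62 (-1.38 to 0.20) in menin-null cells. Within 0.5 kb of its start Nkx1-2 was also lower in menin-null cells, with -1.01 (-1.82 to -0.13), and within 5 kb it was lower in both, with -0.70 (-1.19 to -0.19) in wt and -0.82 (-1.25 to -0.37) in menin-null cells. In all, 6 of 10 genes were called lower in wt, where 8 had enough tags, and 5 of 10 in menin-null cells, where 9 did. Of all genes with enough tags 14.7% were called lower in wt and 23.8% in menin-null cells, and the median ratio of all genes was -0.02 in wt and -0.36 in menin-null cells. Genes were also split at 32 and 85 CG within 1 kb of the start. In the group with the most CG, which holds Cdx1, Cdx2, T, Evx2 and Gdf11, 9.13% of genes with enough tags were called lower in wt and 22.3% in menin-null cells, and the median level was 38.3 RPM in wt mESCs. The other 5 of the 10 genes fell into the middle group, where the shares were 19.95% and 24.0%. By the same rule 0 of 10 genes were called higher, beside 7.31% of all genes in wt and 5.36% in menin-null cells.

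The inputs of the 2 stages were not alike at these starts. Summed over the 10 genes the input was 20.8 RPM in wt mESCs and 16.1 in menin-null mESCs, but 8.55 and 8.26 in PILECs. This was not particular to the 10 genes, since every other gene list read here also had less input in PILECs. In wt mESCs and wt PILECs the Hox genes summed to 79.1 and 39.7 RPM of input, and the Fgf and retinoic acid list to 46.5 and 14.4. When the input ratio within 5 kb of each start was removed from the H3K4me3 ratio, Cdx1 (-3.53 in wt, -3.11 in menin-null), Cdx2 (-2.31, -1.44), Cdx4 (-2.50, -3.60) and T (-1.52, -1.32) kept intervals below 0. Evx1 and Nkx1-2 in wt did not, with -0.11 (-1.03 to 0.90) and -0.54 (-1.36 to 0.36), so the falls of these 2 genes at 1 kb in wt cells did not hold with it. Evx1 in menin-null cells gave -1.28 (-2.25 to -0.25). With the same removal Tbx6, Gdf11 and Evx2 had intervals above 0 in both genotypes, Evx2 with at most 3 tags in either mESC library. All these intervals are those of the H3K4me3 ratio moved by the input ratio. They leave out the counting error of the input tags and are therefore too narrow.

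Gdf11 and Tbx6 took another course. Within 1 kb Gdf11 rose in wt, where PILECs over mESCs gave 0.51 (0.17 to 0.87), and it gave 0.16 (-0.12 to 0.45) in menin-null cells. Within 5 kb it rose in both, by 0.84 (0.53 to 1.16) in wt and 0.43 (0.19 to 0.69) in menin-null cells. Within 0.5 kb it gave -0.17 (-0.59 to 0.27) in wt and -0.60 (-0.95 to -0.25) in menin-null cells, beside medians of all genes of -0.10 and -0.43. The share of its tags within 5 kb that lay outside 1 kb was 19.4% in wt and 20.8% in menin-null mESCs, and 35.9% and 34.3% in PILECs. Between 1 and 2 kb downstream of the start of Gdf11 there were 3 and 11 tags in the wt and menin-null mESC libraries and 204 and 171 in those of PILECs, or 1.24, 3.13, 10.9 and 9.69 RPM. In RPM the mark of Gdf11 was therefore broader in PILECs of both genotypes, and not higher within 0.5 kb of the start. Relative to input within 1 kb it was 13.1-fold in wt and 25.9-fold in menin-null mESCs, and 52.0-fold and 70.2-fold in the PILECs. The log2 intervals of these ratios did not overlap between the stages in wt (2.75 to 4.83 and 4.99 to 6.51). They overlapped in menin-null cells (3.43 to 6.35 and 5.25 to 7.20). Tbx6 gave 0.77 (-0.26 to 2.02) in wt and 0.65 (-0.30 to 1.77) in menin-null cells. Relative to input it was 1.40-fold and 1.18-fold in wt and menin-null mESCs and 5.31-fold and 2.99-fold in the PILECs. The log2 intervals of these ratios for Tbx6 overlapped between the stages. In wt they were -1.06 to 1.97 and 1.71 to 3.18, and in menin-null cells -1.21 to 1.72 and 0.93 to 2.27. Evx2 and Msgn1 had at most 3 tags in either mESC library. Msgn1 gave -0.95 (-2.84 to 1.52) in wt and -0.01 (-2.24 to 3.22) in menin-null cells, both under the filter of 10 tags, and Evx2 gave 1.30 (-0.36 to 3.64) in menin-null cells.

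**Figure D2:**
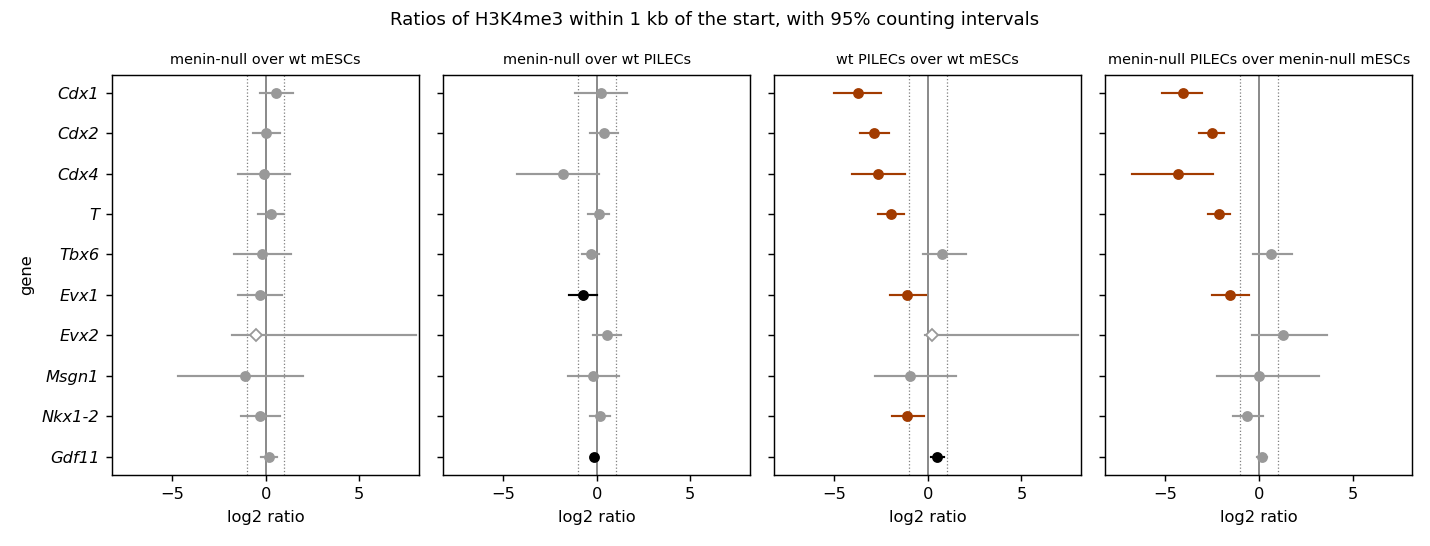
Log2 ratio of RPM within 1 kb of the start (horizontal) for each gene (vertical) in the 4 comparisons, with lines for the 95% counting interval, drawn no farther than 8. Brown marks at least 2-fold with an interval that leaves out 0, black an interval that leaves out 0 at a smaller size, grey an interval that holds 0, an open diamond a count of 0 set to 3 tags, and dotted lines 2-fold, so a reader should see brown points in the 2 comparisons of stages and none in the 2 of genotypes.

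Loss of menin is the question of the study, and the comparison of genotypes within a stage addresses it. In mESCs no gene of the 10 had an interval that left out 0. The log2 ratios of menin-null over wt mESCs were 0.55 (-0.32 to 1.48) for Cdx1, 0.04 (-0.68 to 0.77) for Cdx2, -0.12 (-1.49 to 1.31) for Cdx4 and 0.28 (-0.42 to 1.00) for T. Gdf11 had the narrowest interval, at 0.17 (-0.26 to 0.60), and 2-fold differences lay outside the intervals of Gdf11 and Cdx2. Tbx6 gave -0.21 (-1.70 to 1.33), Evx1 -0.33 (-1.50 to 0.87) and Nkx1-2 -0.28 (-1.32 to 0.77), so that the intervals of these, Cdx1 and Cdx4 held a 2-fold difference in at least 1 direction. Evx2 and Msgn1 had too few tags. Among all genes with enough tags 0.846% were called 2-fold lower and 0.821% 2-fold higher, 2.04% had an interval below 0 and 24.8% one above 0, around a median of 0.23.

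In PILECs, where the libraries were deeper, again none of the 10 genes was called in either direction, beside 1.40% of all genes 2-fold lower and 1.30% 2-fold higher in menin-null PILECs. Intervals lay below 0 for Evx1, with 46 tags in wt and 26 in menin-null PILECs and a ratio of -0.74 (-1.49 to -0.01), and for Gdf11, with 823 and 687 tags and -0.17 (-0.32 to -0.03). Neither interval left out 0 with 1 tag kept per position and strand (-0.73 for Evx1, -0.15 for Gdf11) or with scaling by tags within 1 kb of any start (-0.64 and -0.08). Evx1 passed 2-fold within 0.5 kb, with -1.18 (-2.15 to -0.27), with tags counted at their 5′ ends, with -1.05 (-1.86 to -0.27), and with the input ratio within 5 kb removed, with -1.12 (-1.87 to -0.40). The last interval leaves out the counting error of the 91 and 113 input tags in wt and menin-null PILECs. For all genes the share with an interval below 0 was 20.4%, so 2 of 10 was the background level, and no gene of the 10 had an interval above 0, beside 5.10% of all genes. The median of all genes was -0.07. Cdx2 (31 and 38 tags) gave 0.38 (-0.34 to 1.11), T (55 and 56) 0.11 (-0.45 to 0.68), Tbx6 (105 and 79) -0.32 (-0.76 to 0.11), and Nkx1-2 (58 and 62) 0.18 (-0.36 to 0.72). Cdx2, T, Tbx6 and Nkx1-2 thus did not differ between the genotypes beyond counting error, and 2-fold falls lay outside the intervals of all 4. Evx2 gave 0.54 (-0.21 to 1.31), Cdx1 0.22 (-1.15 to 1.62) and Msgn1 -0.18 (-1.55 to 1.16). Cdx4 had 11 tags in wt and 3 in menin-null PILECs, with -1.79 (-4.27 to 0.13) and no call.

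The genotype ratio in PILECs was also set against that in mESCs for each gene, with the exact conditional interval of the 4 counts. No gene of the 10 had an interval that left out 0. The share over all genes was not computed for this comparison, so no background stands beside this count. Evx2 and Msgn1 had at most 3 tags in either mESC library. The log2 difference was -0.31 (-1.99 to 1.36) for Cdx1, 0.35 (-0.70 to 1.39) for Cdx2, -0.16 (-1.09 to 0.75) for T, 0.47 (-0.73 to 1.65) for Nkx1-2 and -0.34 (-0.80 to 0.11) for Gdf11. The interval for Evx1, with -0.40 (-1.83 to 1.00), held 0 as well. The fall of Nkx1-2 within 1 kb, which passed in wt and not in menin-null cells, was therefore not shown to differ between the genotypes.

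Hox genes, known targets of Cdx proteins, took another course in the same libraries. Of 39 Hox genes, 22 were called 2-fold lower in menin-null PILECs, with a median ratio of -1.38 and 0 called higher. Hoxb8 went from 203 tags in wt to 16 in menin-null PILECs (-3.58, -4.41 to -2.84), and Hoxb2 from 188 to 20 (-3.15, -3.89 to -2.48). On differentiation 12 of the 38 Hox genes with enough tags rose at least 2-fold in wt and 13 fell, while 0 of 34 rose and 25 fell in menin-null cells, beside 7.31% of all genes higher and 14.7% lower in wt and 5.36% and 23.8% in menin-null cells. These counts are in RPM. Relative to input the median log2 ratio of the Hox genes was 1.76 in mESCs and 2.31 in PILECs in wt, and 1.99 and 0.92 in menin-null cells. These medians cover the Hox genes with enough tags, 30 and 39 in wt and 36 and 39 in menin-null cells. The mESC medians therefore leave out Hox genes with few tags and are not over the same genes as those of PILECs. The Hox genes and the 10 regulators share these 4 libraries, and the difference between the lists was not tested.

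**Figure D3:**
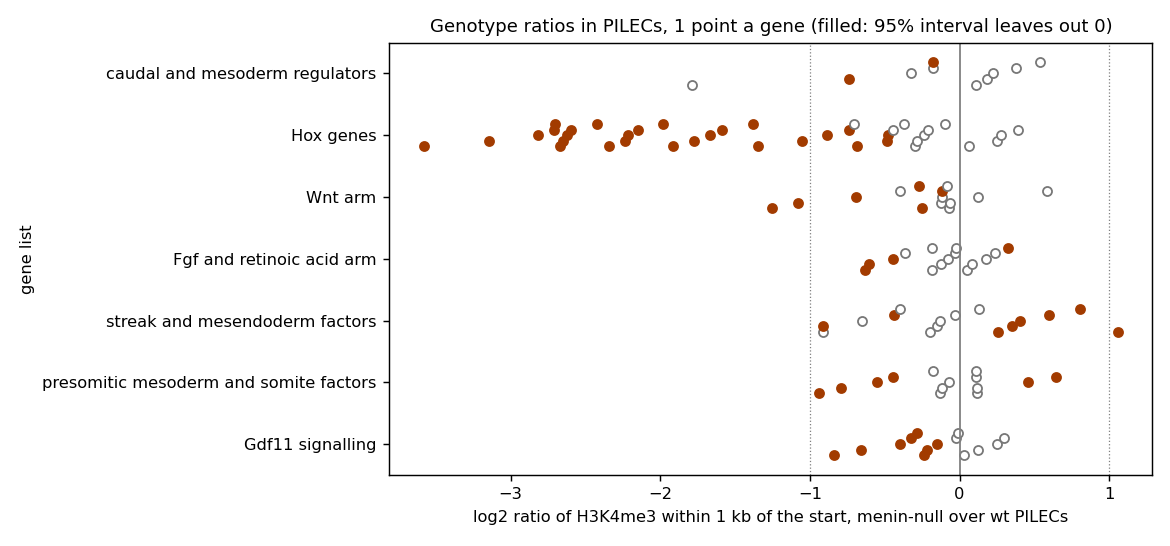
Ratio (log2) of H3K4me3 counted 1 kb around the start in menin-null over wt PILECs (horizontal), 1 point a gene, for the 10 regulators (all of which had at least 10 tags scaled to the shallower library) and 6 related gene lists (vertical; genes with at least 20 such tags), with filled points where the 95% interval leaves out 0 and dotted lines at 2-fold. The Hox genes reach from -3.58 upwards with 22 of 39 called 2-fold lower, whereas the filled points of the 10 regulators lie at -0.74 and -0.17.

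Evx1 and Evx2 are neighbours of the Hoxa and Hoxd clusters, with starts 52672 bp from the nearest annotated start of Hoxa13 and 8891 bp from that of Hoxd13. These last Hox genes were not called between the genotypes in PILECs, with -0.37 (-1.08 to 0.32) for Hoxa13 and 0.25 (-0.47 to 0.97) for Hoxd13. In RPM both were lower in PILECs than in mESCs, with -2.07 in wt and -3.00 in menin-null cells for Hoxa13 and -3.23 and -2.64 for Hoxd13. Relative to input Hoxa13 was at 2.39 (1.19 to 3.75) in wt mESCs and 2.15 (1.14 to 3.31) in wt PILECs, so its fall in wt was not seen relative to input, and in menin-null cells it was at 3.18 (1.95 to 4.69) and 1.86 (0.76 to 3.11). Hoxd13 went from 3.32 (2.14 to 4.72) to 1.48 (0.49 to 2.56) in wt and from 2.29 (1.28 to 3.44) to 0.66 (-0.12 to 1.46) in menin-null cells. The 50748 bp between Evx1 and Hoxa13 held 0.339 RPM per kb in wt and 0.392 in menin-null PILECs, below the inputs of 0.482 and 0.463, and their ratio was 0.21 (-0.01 to 0.43). Between Evx2 and Hoxd13 the ratio was 0.23 (-0.43 to 0.89). Neither stretch nor Hoxa13 or Hoxd13 was thus lower in menin-null PILECs beyond counting error.

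Windows of 1 kb do not take in the whole mark of some of these genes. For each gene the 1-kb stretch with the most H3K4me3 between 1 and 5 kb from the start was found from the sum of the 4 libraries, a step chosen after the profiles were seen. Picked for their H3K4me3 in these same libraries, such stretches would tend to stand over input, so their ratios over input are a description. For Evx2 this stretch lies inside the gene, from 3.0 to 4.0 kb downstream of the start (chromosome 2, 74493476 to 74494476), over the last exon, and holds 120 CG. It carried 41 and 51 tags in the wt and menin-null mESC libraries and 56 and 48 in the PILEC libraries, or 16.9, 14.5, 2.99 and 2.72 RPM, beside 0.944 and 1.87 RPM in the mESC inputs and 0.211 and 0.277 in the PILEC inputs. So Evx2, whose start had 0 and 3 tags in mESCs, had 41 and 51 tags in 1 kb over its last exon, beside 29 and 43 for Cdx2 and 28 and 49 for T in the 2 kb around their starts.
The 300 bases at the beginning of that exon, all coding and 3084 to 3383 bp downstream of the start used, show the density of CpG there, with each CG in capitals (mm9, read on the strand of the gene).
Evx2 last exon, chr2:74494093-74494392, minus strand, 33 CG: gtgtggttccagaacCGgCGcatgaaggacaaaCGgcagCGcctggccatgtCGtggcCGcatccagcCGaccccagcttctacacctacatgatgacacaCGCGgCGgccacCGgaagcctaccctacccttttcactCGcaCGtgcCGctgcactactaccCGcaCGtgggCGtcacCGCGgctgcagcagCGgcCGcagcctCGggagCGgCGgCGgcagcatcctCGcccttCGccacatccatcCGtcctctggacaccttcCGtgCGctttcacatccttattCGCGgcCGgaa
From mESCs to PILECs the RPM of the stretch over this exon gave -2.50 (-3.10 to -1.88) in wt and -2.42 (-3.02 to -1.82) in menin-null cells. The inputs there held 4 and 7 tags in wt and menin-null mESCs and 4 and 5 in the PILECs. Relative to input the stretch stood at log2 ratios of 4.16 (2.70 to 6.10) in wt mESCs and 3.82 (2.39 to 5.75) in wt PILECs. In menin-null cells the values were 2.95 (1.81 to 4.34) and 3.29 (1.97 to 4.98). With so few input tags the intervals are wide and overlap, so whether the stretch fell relative to input could not be decided. Between the genotypes it gave -0.14 (-0.72 to 0.45) in PILECs and -0.22 (-0.84 to 0.41) in mESCs.

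Evx1 had such a stretch too, although its start was not as empty, with 13 and 15 tags in wt and menin-null mESCs and 46 and 26 in the PILECs. The stretch from 2.8 to 3.8 kb downstream (chromosome 6, 52266346 to 52267346) overlaps an exon, holds 85 CG, and carried 7.82 and 5.41 RPM in wt and menin-null mESCs but 1.07 and 0.680 RPM in PILECs (19, 19, 20 and 12 tags). The inputs there had 2.36 and 1.07 RPM in mESCs and 0.264 and 0.499 in PILECs (10, 4, 5 and 9 tags). The log2 ratio between the stages was -2.87 (-3.85 to -1.89) in wt and -2.99 (-4.17 to -1.87) in menin-null cells, beside -1.12 and -1.54 at the start. Relative to input it was 1.73 (0.55 to 2.997) in wt mESCs and 2.02 (0.56 to 3.79) in wt PILECs, and 2.34 (0.75 to 4.35) and 0.45 (-0.92 to 1.87) in menin-null cells. With these few input tags the intervals are wide and overlap, so whether the stretch fell relative to input could not be decided. The start of Evx1 lies 47 bp from that of 5730457N03Rik, so tags there cannot be assigned to one of them. Within 5 kb of the start Evx1 had 150 tags in wt and 93 in menin-null PILECs, a ratio of -0.60 (-0.99 to -0.22), beside 91 and 113 input tags. For Evx1 and for Gdf11, with -0.21 (-0.33 to -0.09) within 5 kb, the intervals lay below 0 in both windows, each ratio under 2-fold. Within 1 kb this was the background level, with 20.4% of all genes below 0. It did not hold there with 1 tag kept per position and strand or with scaling by tags at starts. No share of all genes was computed within 5 kb.

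**Figure D4:**
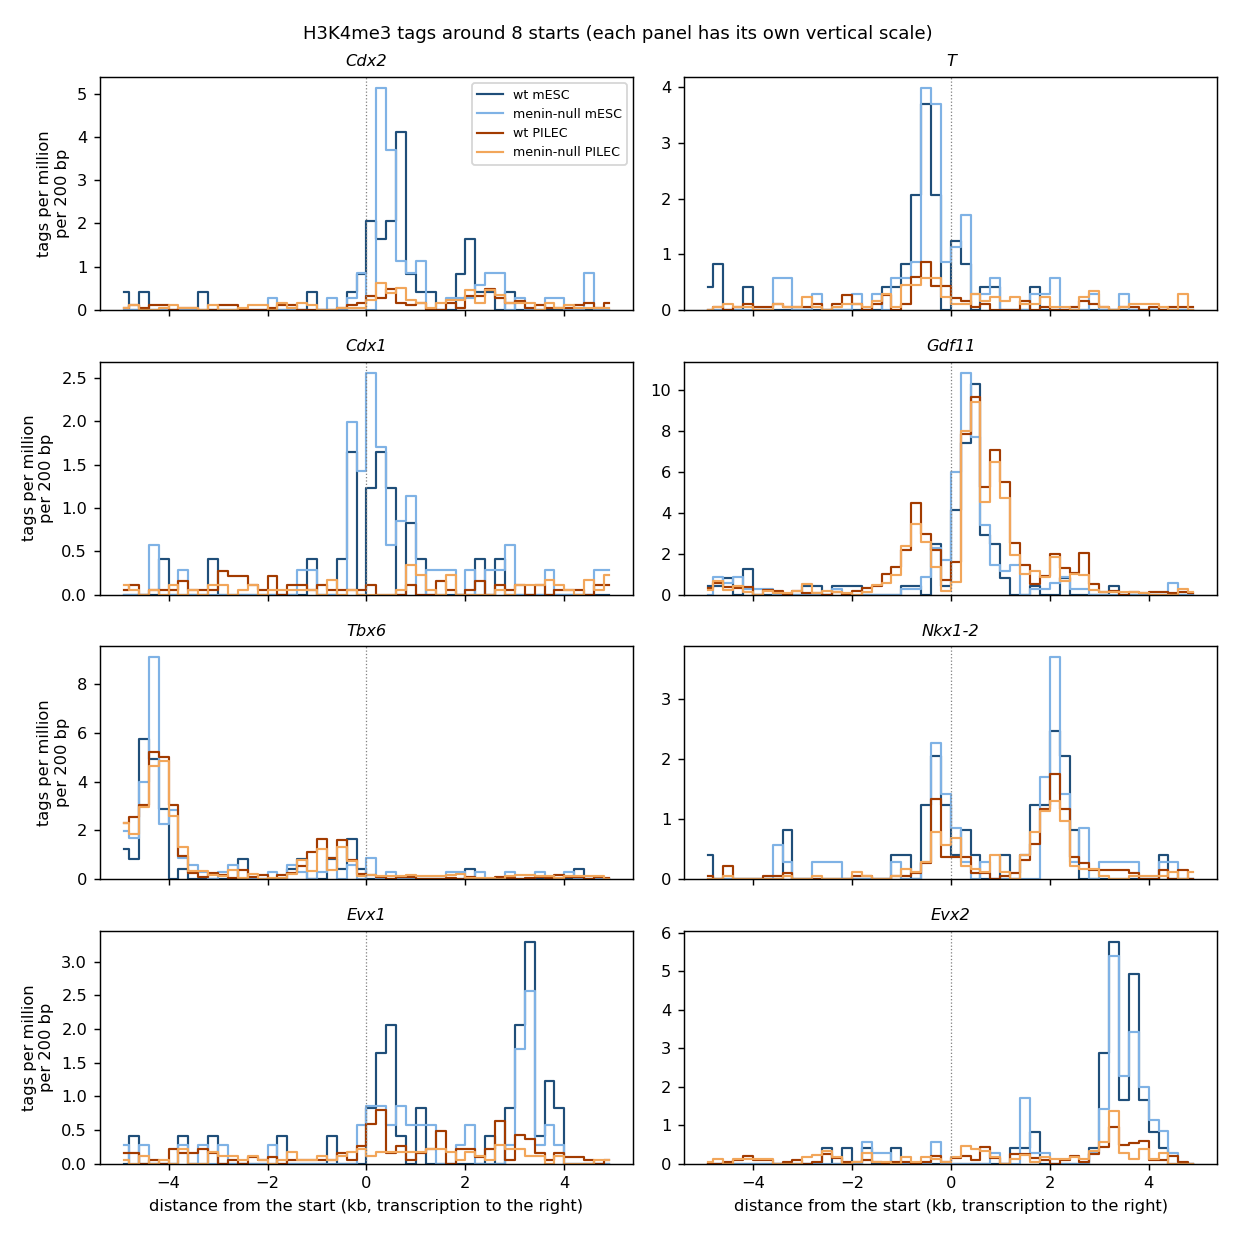
H3K4me3 in RPM in bins of 200 bp (vertical, a scale of its own in each panel) against the distance from the start in kb (horizontal, transcription to the right) for 8 genes, with 1 line for each H3K4me3 library. The H3K4me3 of Cdx2, T and Cdx1 stands at the start in mESCs and is lower in RPM in PILECs, and that of Gdf11 is broader in PILECs. That of Evx1 and Evx2 is highest 3.2 to 3.4 kb downstream in mESCs. For Evx1 this bin held 8 and 9 tags in wt and menin-null mESCs, and the wt mESC input was also highest there, with 5 tags. The peak left of Tbx6 lies near the starts of Ypel3 and Gm9967.

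Nkx1-2 also had a downstream stretch, from 1.6 to 2.6 kb (chromosome 7, 139788720 to 139789720), with 7.82 and 7.12 RPM in the wt and menin-null mESC libraries and 5.07 and 4.42 RPM in those of PILECs. It overlaps an exon of Nkx1-2 and the start of Gm16764, which lies 2234 bp downstream of that of Nkx1-2. In wt and menin-null PILECs the stretch was over input by log2 ratios of 4.59 (3.18 to 6.49) and 3.15 (2.15 to 4.33), with only 4 and 9 input tags. Its ratio between the stages was -0.63 (-1.35 to 0.17) in wt and -0.69 (-1.35 to 0.02) in menin-null cells. Of the H3K4me3 around Nkx1-2 in PILECs, 70.9% of the tags within 5 kb in wt and 63.7% in menin-null cells lay outside 1 kb of its own start, beside 75.0% and 87.4% of the input tags.

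Around Tbx6 most tags lay near other starts. The stretch from 4.8 to 3.8 kb upstream, which takes in the start of Ypel3 3902 bp upstream and lies within 1 kb of that of Gm9967, held 35 and 70 tags in the wt and menin-null mESC libraries and 354 and 299 in those of PILECs (14.4, 19.9, 18.9 and 16.9 RPM), with a stage ratio of 0.39 (-0.11 to 0.94) in wt and -0.23 (-0.61 to 0.16) in menin-null cells. Of the tags within 5 kb of Tbx6, 82.7% in wt and 85.2% in menin-null PILECs lay outside 1 kb. The tags of Tbx6 itself in PILECs lay upstream of the start, as the profiles show, and within 0.5 kb of the start its ratio of wt PILECs over wt mESCs was -0.28 (-1.54 to 1.25).
Cdx2 had a weaker stretch 1.8 to 2.8 kb downstream, inside the gene and off its exons, with 27 tags in wt and 29 in menin-null PILECs beside 6 and 9 input tags, and its stage ratio there was -1.19 (-2.37 to 0.16) in wt. At Cdx1 the share of tags outside 1 kb went from 26.1% in wt and 30.8% in menin-null mESCs to 85.5% and 81.7% in PILECs, beside 84.9% and 86.5% in the PILEC inputs, so in PILECs its tags were spread like the input. At T the tags outside 1 kb were 7 of 35 in wt and 15 of 64 in menin-null mESCs, and 45.5% and 55.6% in the PILECs, beside 79.2% and 87.1% in the PILEC inputs. Within 5 kb T gave a ratio of 0.41 (0.02 to 0.80) with 126 tags in menin-null and 101 in wt PILECs, while the inputs there held 93 and 72 tags.

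The genes nearest in pattern were sought among 24356 genes by the Euclidean distance of log2(RPM + 0.5) over the 4 H3K4me3 libraries. Nearest to Cdx1, which had the largest fall in wt, were Gm15179 at 0.16 and C330046G13Rik at 0.27. Nearest to Gdf11, which had the highest level, were Dbi at 0.04 and Ugp2 at 0.09. Within the 10 genes Cdx2 and T were the closest pair, at 0.84.

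Lists of genes that act with these regulators were read in the same way, with values for the 2 genes of largest change in each direction whose interval left out 0. In menin-null over wt PILECs 20.4% of all genes had an interval below 0 and 5.10% one above, and the PILEC counts below stand beside these shares. Of 14 genes of the Wnt arm, the signal that induces T and the Cdx genes, 6 had an interval below 0 in menin-null over wt PILECs and 0 above, with a median of -0.12. The ligand gene Wnt5b went from 384 tags in wt to 152 in menin-null PILECs (-1.25, -1.53 to -0.98), and Wnt3, a ligand needed for the primitive streak, from 256 to 114 (-1.08, -1.41 to -0.76). These 2 ligand genes were the only called ones in the Wnt list. In mESCs Wnt5b gave 0.05 (-0.42 to 0.53) and Wnt3 0.02 (-0.68 to 0.74). Of the 14 Wnt genes 1 had an interval below 0 there, Lef1 with -0.99 (-1.57 to -0.41), and 2 above, Axin2 with 0.68 (0.31 to 1.05) and Wnt11 with 1.21 (0.33 to 2.19), the 1 call. In mESCs the shares of all genes were 2.04% with an interval below 0 and 24.8% with one above, and 0.821% were called higher. Of 15 genes of the Fgf and retinoic acid arm, 3 had an interval below 0 and 1 above in PILECs, with a median of -0.08 and no call. Rarb, a retinoic acid receptor, gave -0.63 (-0.89 to -0.38), Fgf18 gave -0.61 (-0.81 to -0.40), and Etv4, a target of Fgf signals, gave 0.32 (0.11 to 0.54).

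Among 16 streak and mesendoderm factors, 2 had an interval below 0 and 6 above, with a median of -0.08. Mixl1, a homeobox gene of the streak, had 84 tags in wt and 42 in menin-null PILECs (-0.91, -1.48 to -0.36), and Eomes gave -0.44 (-0.79 to -0.09). Gata4 was the 1 called gene, higher with 77 and 151 tags (1.06, 0.65 to 1.47), and Foxa2, a factor of endoderm, gave 0.81 (0.43 to 1.19). Of 14 presomitic mesoderm and somite factors, a list that also holds genes of neural crest and muscle precursors, 4 lay below and 2 above, with a median of -0.09 and no call. Pax3 gave -0.94 (-1.22 to -0.66), Meox2 -0.79 (-1.26 to -0.34), Foxc2 0.64 (0.33 to 0.96) and Hes7, of the segmentation clock, 0.46 (0.13 to 0.79). Of 15 genes of Gdf11 signalling 8 lay below and 0 above, with a median of -0.15 and no call, among them Lin28b with -0.84 (-1.05 to -0.63) and Smad2, which carries the signal to the nucleus, with -0.66 (-0.85 to -0.46).

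The lists were also counted between the stages, beside 14.7% of all genes called lower and 7.31% higher in wt and 23.8% and 5.36% in menin-null cells, and differences between lists were not tested. In wt, 11 of 16 streak and mesendoderm factors were called lower and 1 higher (median -1.37), and in menin-null cells 8 lower and 1 higher (median -1.21). Of the Fgf and retinoic acid arm 6 of 15 were called lower in wt and 7 in menin-null cells, with 0 higher. These falls are in RPM. Relative to input the median log2 ratio of the streak and mesendoderm list was 2.23 in mESCs and 2.87 in PILECs in wt, and 2.79 and 2.82 in menin-null cells. That of the Fgf and retinoic acid list was 3.45 and 4.38 in wt and 3.99 and 3.84 in menin-null cells. The Wnt arm, with 13 genes counted, had 3 lower and 4 higher in wt, and 4 lower and 2 higher in menin-null cells, and the somite list, also with 13, had 3 lower and 5 higher in wt, and 3 lower and 2 higher in menin-null cells. Pax3 went from 7 tags in wt mESCs to 315 in wt PILECs (2.54, 1.48 to 3.87) and from 28 to 155 in menin-null cells (0.14, -0.45 to 0.78), and was called higher in menin-null over wt mESCs (1.47, 0.24 to 2.91). Of the Gdf11 signalling list 2 of 14 with enough tags were called lower and 1 higher in wt, and 6 lower and 0 higher in menin-null cells. Markers of other cells that the cultures could hold were read beside these values. Summed over the lists and the 4 H3K4me3 libraries, 8 neural markers placed of 10 had 107 to 147 RPM, 10 markers of fibroblasts and mesenchyme 87.7 to 108, 8 of endoderm 56.1 to 70.8, and 12 of islet cells 70.1 to 96.2. Between wt and menin-null PILECs the fibroblast and mesenchyme list had 5 of 10 intervals below 0 and 1 above (summed 108 and 93.9 RPM, no marker at 0 tags). The endoderm list had 1 of 8 below and 3 above (62.2 and 63.6 RPM), the latter being Gata4, Foxa2 and Gata6, which the streak and mesendoderm list holds as well. The islet list had 1 of 12 below and 2 above, and the neural list 1 of 8 below and 1 above. Of all genes 20.4% had an interval below 0 and 5.10% one above. The part of any of these cell types in the values of mesoderm genes was not tested.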

How the data were processed

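The 8 deposited tag files, 1 of H3K4me3 ChIP-Seq and 1 of input DNA for each line and stage, were read without change. The authors aligned 36-bp reads to mm9, kept reads with a unique place and few mismatches, and deposited 1 line a tag, so a value is a tag position with no normalization. The score deposited with each tag was not used, and the aligner is not given in the sources used here. Tags repeated at a position and strand (4.15% to 11.4% of the H3K4me3 libraries) and the 1.04% to 1.81% of tags with over 2 mismatches were kept.

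Each tag was moved to the middle of a 250-bp fragment and counted within 1 kb of the annotated start with the most H3K4me3 over the 4 libraries (75530 starts of 26212 genes, GENCODE vM1, NCBIM37). RPM used the tags on chromosomes 1 to 19, X and Y. Genes with under 10 tags, scaled to the shallower library and summed, were left out of counts over lists and all genes, and a count of 0 was set to 3 tags. With 1 library a condition no p-value was computed. Intervals compare libraries, not conditions. They were tried on simulated Poisson counts, which hold counting error only, so variation between replicates was not tested. Python 3.11.15, numpy 2.4.6, scipy 1.17.1 and matplotlib 3.10.9 were used. The members and the gene lists were chosen with earlier results of these data known. Genes named were the 10 members, Men1, Hoxa13, Hoxd13, genes starting within 1 kb of a member, the nearest genes in pattern, and up to 2 genes a list and direction. A set of 8 alternatives changed repeated tags, tag position, scaling, window, start, input and filter. Removal of tags with over 2 mismatches and of the input ratio within 5 kb, the alternatives for the comparison with input, and the stretches outside 1 kb were added after seeing the data. Ins1, Ins2, Gcg, Sst, Iapp, Lef1, Axin2, Wnt11, Ypel3, Gm9967, Gm16764, Gata6 and the values of Pax3 between stages were chosen after their values were seen.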

Additional observations from a re-analysis of the deposited data

How the results depend on the processing

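No paired analysis was possible because each condition has 1 library. The depth of the mESC libraries is a limit: the intervals of Cdx1, Cdx4, Tbx6, Evx1 and Nkx1-2 held a 2-fold genotype difference there, and Evx2 and Msgn1 had too few tags at the start. The falls of Cdx1, Cdx2, Cdx4 and T in RPM on differentiation kept their direction and, where an interval was computed, intervals below 0 in both genotypes under the alternatives listed in the methods. None of these divides by the input within 1 kb, and relative to it the intervals of the stages overlapped for T (2.29 and 1.89 in wt mESCs and PILECs, 2.53 and 2.25 in menin-null cells), for Cdx2 (2.49 and 1.16, 2.34 and 1.82), for Cdx4 (1.17 and 0.89, 3.67 and -0.97) and for Cdx1 in menin-null cells (1.80 and -0.32). The count of 2 genes with an interval below 0 in menin-null over wt PILECs became 0 with 1 tag kept per position and strand, 0 with scaling by tags within 1 kb of any start, 1 with a window of 2 kb and 1 with at most 2 mismatches, and the count of 0 above became 1 with a window of 2 kb, so the intervals of Evx1 and Gdf11 below 0 rest on these choices. The ratio of Evx1 stayed below 0 in all of them, from -0.73 to -0.51 where its interval held 0, and passed 2-fold with a window of 0.5 kb (-1.18), with tags at their 5′ ends (-1.05) and with the input ratio removed (-1.12), and it was -4.06 with the input subtracted, which gives no interval. In menin-null over wt mESCs the count of 0 above became 1 with the input ratio removed. In wt PILECs over wt mESCs the count of 1 above became 0 with 1 tag per position and strand, 0 with a window of 0.5 kb and 3 with the input ratio removed, and Gdf11 turned to -0.17 with a window of 0.5 kb, since its added tags lie farther out. In menin-null PILECs over menin-null mESCs the count of 0 above became 2 with scaling by tags at starts, 1 with a window of 2 kb and 3 with the input ratio removed. With the input ratio removed, the 3 genes above 0 between the stages were Tbx6, Gdf11 and Evx2 in both genotypes. Scaling by tags at starts moved all ratios by 0.09 in PILECs, by -0.24 in mESCs, by 0.03 between stages in wt and by 0.36 in menin-null cells. Causes of the other changes were not tested. Subtraction of the input gave no value for 10 member ratios. Intervals with the input ratio removed take that ratio as free of counting error.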
